A study of Homo sapiens with 6 samples.

Results

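The core autophagy genes are 40 genes whose proteins form, extend and load the autophagosome. They were taken by gene symbol from GENCODE release 44, and all 40 of the 62252 genes summed from the deposited transcript tables had a row and entered the test. RNA was measured in 6 libraries of K562, an erythroid leukemia cell line, to ask how low available iron changes the transcriptome. The Chelator group (n = 3) received 10 µM of the cell-permeable iron chelator 21H7 overnight, and the DMSO group (n = 3) received the same volume of the solvent. No other agent or genetic change separated the groups, and the cells were not sorted. Nothing in the sample labels says whether replicates were separate cultures, so the p-values measure the spread between these libraries.

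Autophagy encloses a portion of cytoplasm in a closed vesicle, the autophagosome, and delivers it to the lysosome. The ULK complex starts the process, the PI3K complex marks the membrane with the lipid PI3P, ATG9 vesicles and the ATG2 lipid bridges feed membrane growth, and the WIPI proteins read PI3P. A conjugation machinery that resembles ubiquitination then attaches the small ATG8 proteins (LC3 and GABARAP) to membrane lipid after ATG4 proteases have trimmed them, and receptors such as SQSTM1 (p62) tie cargo to the lipid-bound ATG8 proteins. Autophagy also returns stored iron to the cell when ferritin is carried to the lysosome.

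Each library held between 78.6 and 101 M estimated counts (M, 1e+06 counts). The median fragment length read from the deposited effective lengths was 252 to 264 bases in DMSO and 200 to 218 bases in Chelator. These ranges did not overlap, so the treatment and the length of the fragments cannot be told apart, and the value matters below for transcripts that are not much longer than a fragment. DMSO replicate 2 stood farthest from its group, with a chi-square per gene of 61.3 and 42.4 against the other DMSO libraries, where these differed from each other by 8.14. Chelator replicate 1 also stood apart, at 30.2 and 27.8 against the other Chelator libraries, which differed from each other by 6.36. The identity of the cells was checked with erythroid markers. In DMSO the fetal globin genes HBG1 and HBG2 stood at 3905 and 5274 TPM (a level scaled for transcript length and library size) and GATA1 at 170.5 TPM. Among markers of other cells, CD3E, CD14, COL1A1 and ALB averaged 0.0934 to 0.589 TPM in DMSO, and the epithelial marker EPCAM was at 65.4 TPM. In Chelator CD3E was at 0.476, COL1A1 at 1.83 and EPCAM at 47.9 TPM, and their part in the results was not tested. A change in RNA per cell and a change in the makeup of the culture cannot be told apart in bulk RNA.

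The promoters of 3 of the 5 members called higher in the comparison that follows are shown first, to put their sequence beside their transcripts. RefSeq's promoter table (GRCh38.p14) held 44 entries for 35 of the 40 members. Printed here are 280 bases, from 250 before the start to 30 into the transcript, for MAP1LC3B, WDR45 and SQSTM1, the members with the largest rise in the ATG8 group, the WIPI group and the receptor group. Capitals mark a match to one of 4 searched motifs on either strand: CACGTG (the E-box core that MiT/TFE factors bind), ACGTG (the hypoxia response core, contained in CACGTG), TGATGNAA (the composite site of CHOP and ATF4) and TGACNNNGC (the antioxidant response core).

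The MAP1LC3B entry lies on the plus strand, chr16:87392086-87392365, and 171.6 of the gene's mean TPM in Chelator came from transcripts that start within 50 bases of its start, against 53.9 TPM in DMSO.
MAP1LC3B: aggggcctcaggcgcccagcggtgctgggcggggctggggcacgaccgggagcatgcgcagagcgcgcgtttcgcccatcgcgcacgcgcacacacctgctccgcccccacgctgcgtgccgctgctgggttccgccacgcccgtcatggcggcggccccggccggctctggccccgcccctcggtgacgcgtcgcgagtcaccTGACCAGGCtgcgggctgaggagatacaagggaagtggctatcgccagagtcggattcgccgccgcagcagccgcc

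The WDR45 entry lies on the minus strand, chrX:49079858-49080137, and transcripts that start there held 24.3 TPM in DMSO and 61.4 TPM in Chelator. A second WDR45 entry, upstream, held 5.36 and 4.90 TPM.
WDR45: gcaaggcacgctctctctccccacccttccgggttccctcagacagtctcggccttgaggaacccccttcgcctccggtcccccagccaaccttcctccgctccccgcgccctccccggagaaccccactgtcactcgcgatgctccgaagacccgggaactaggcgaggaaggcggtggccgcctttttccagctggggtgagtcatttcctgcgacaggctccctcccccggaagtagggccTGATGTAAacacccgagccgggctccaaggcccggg

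The SQSTM1 entry lies on the plus strand, chr5:179820655-179820934, and is the most downstream of 3. Transcripts that start there held 57.6 TPM in DMSO and 162.2 TPM in Chelator, against 5.36 and 5.67 TPM at the most upstream entry and 0 at the middle one.
SQSTM1: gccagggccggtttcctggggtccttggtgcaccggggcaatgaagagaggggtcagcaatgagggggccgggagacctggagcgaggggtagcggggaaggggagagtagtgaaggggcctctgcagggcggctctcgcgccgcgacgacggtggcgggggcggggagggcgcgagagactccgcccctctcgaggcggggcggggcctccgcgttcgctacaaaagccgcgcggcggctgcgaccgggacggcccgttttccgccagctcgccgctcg

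In MAP1LC3B the match to TGACNNNGC begins 46 bases before the start, and in WDR45 the match to TGATGNAA begins 6 bases before it. SQSTM1, ULK1, OPTN and ULK2 held none of the 4 motifs in their windows. Over all 35116 RefSeq promoters of 300 bases, CACGTG occurred in 7.26%, ACGTG in 21.4%, TGATGNAA in 3.62% and TGACNNNGC in 13.3%. Among the 44 member entries, CACGTG occurred in 3 (ATG14, ATG3 and ULK3), ACGTG in 12, TGATGNAA in 1 and TGACNNNGC in 4 (ATG101, CALCOCO2, MAP1LC3B and ULK3). A match describes letters in the window and not binding.

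The members were then compared between Chelator and DMSO. The largest rises among the members that passed the test were those of an ATG8 gene, receptors and single members of the ULK complex and the WIPI genes. MAP1LC3B rose 3.06-fold, SQSTM1 2.57-fold, ULK1 2.35-fold, WDR45 2.26-fold and OPTN 2.21-fold. These 5 (12.5% of the members) were called higher by DESeq2's Wald test at an adjusted p under 0.05 and a log2 fold change above 1, where 8.18% of all genes were called higher. ULK2, which was barely expressed, was called lower, where 2.6% of all genes were called lower. With no fold threshold, 20 members (50%) were higher at an adjusted p under 0.05, where 19.5% of all genes were, and 7 (17.5%) were lower, where 18.3% of all genes were. The remaining 13 did not pass, with DESeq2 adjusted p-values of 0.0531 or more.

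The median log2 fold change was 0.26 over the members and 0.016 over all genes with an adjusted p. Every Chelator library lay above every DMSO library in normalized count for 24 members (60%), where the same held for 25.5% of all genes, and below for 8 (20%), where it held for 23.7% of all genes. Well-expressed genes pass the test more often, and 36 of the members had a mean normalized count of at least 1000. Of all 8942 genes above this count, 24.8% were higher and 38.2% lower at an adjusted p under 0.05 by DESeq2, and their median log2 fold change was -0.09. The 36 members stood at 50% higher, 16.7% lower and a median of 0.23. How the libraries were scaled set part of the count of small rises. Centring them on the mean log2 change moved the median of all genes to -0.15, and 11 members (27.5%) were then higher by the same test in place of 20, where 13.7% of all genes were, while ULK1, WDR45, MAP1LC3B and SQSTM1 were still called. After centring 10 members (25%) were lower in place of 7, adding UVRAG, AMBRA1 and ATG4C, where 25.7% of all genes were lower. The 9 that were no longer higher were ATG12, ATG13, ATG14, ATG4A, ATG4D, ATG7, NBR1, WDR45B and WIPI2.

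**Figure D1:**
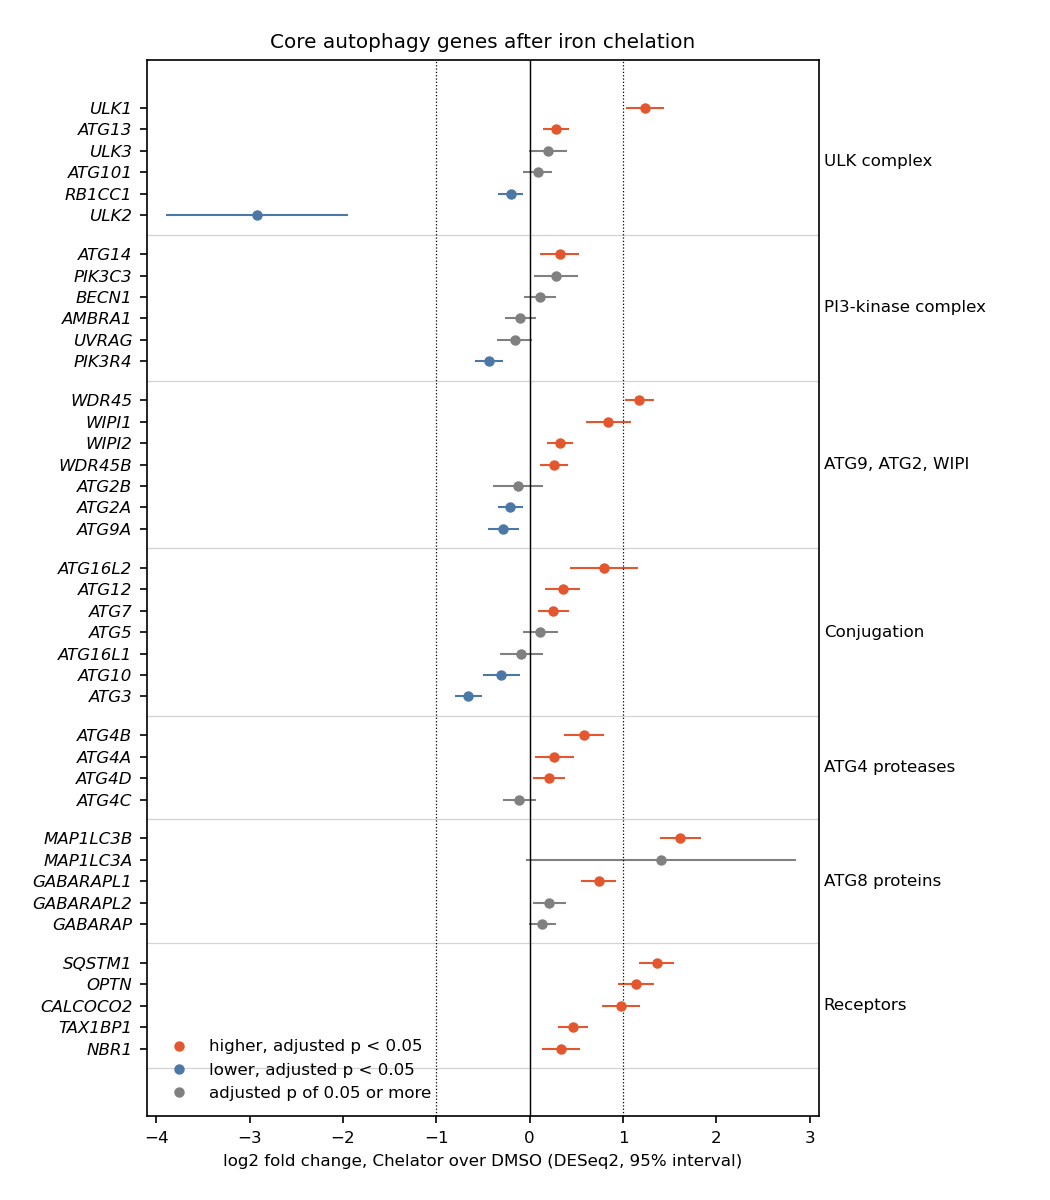
Log2 fold change of each of the 40 core autophagy genes, Chelator over DMSO (x axis), by role (DESeq2 estimate with its 95% interval, 3 libraries per group); dotted lines mark a log2 change of 1 in either direction. All 5 receptors and all 5 ATG8 genes have estimates above 0, as do 12486 of 24542 genes in all. ULK1 and WDR45 have the highest estimates of their roles, and ULK2 has the lowest estimate and a wide interval.

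The ULK complex is the starting kinase, made of a ULK kinase with the scaffold RB1CC1 (FIP200), ATG13 and ATG101. ULK1 (ENSG00000177169.10, chromosome 12, 131894622 to 131923150) had normalized counts, meaning counts corrected for depth and transcript length, of 2822, 2216 and 2503 in DMSO and 5669, 5563 and 6465 in Chelator. Each Chelator library held more than any DMSO library, and the log2 fold change was 1.23 (DESeq2 adjusted p = 1.10e-30, SE 0.10). It was called in all 15 alternative fits, where it ranged from 1.07 to 1.32. None of its 31-base sequences occurred in another expressed gene.

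ULK2 (ENSG00000083290.20, chromosome 17, 19770829 to 19867936), the close relative of ULK1, was near the limit of detection. Its libraries held 24, 32.2 and 19.6 estimated counts in DMSO and 17.0, 21.0 and 15.5 in Chelator, so that the raw counts overlapped. The fitted log2 fold change of -2.92 (DESeq2 adjusted p = 3.83e-08, SE 0.50) rested on the correction for transcript length, since the average length assigned to ULK2 rose from 1922 to 8479 bases. Without that correction the change was -0.72 and did not pass (DESeq2 adjusted p = 0.30). With protein-coding transcripts only the direction turned, to 3.06 (DESeq2 adjusted p = 0.035). Of these transcripts, ULK2-202 held 6.15, 0 and 0 estimated counts in DMSO and 17.0, 21.0 and 15.5 in Chelator, while the retained-intron transcript ULK2-203 held 16.1, 32.2 and 15.6 in DMSO and 0 in each Chelator library. The direction of ULK2 was therefore not settled by these fits.

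ATG13, the adaptor that links the kinase to RB1CC1 and the most abundant member of the complex in TPM, had normalized counts of 6285, 5936 and 6380 in DMSO and 7822, 7244 and 7568 in Chelator. The groups did not overlap, and the difference was small at 0.28 on the log2 scale (DESeq2 adjusted p = 0.000338, SE 0.07). RB1CC1 had a log2 fold change of -0.20 (DESeq2 adjusted p = 0.0121), which passed as lower in 10 of 15 alternative fits. It did not pass with the edgeR quasi-likelihood test (adjusted p = 0.0581), without the length correction (DESeq2 adjusted p = 0.395), without DMSO replicate 3 or without Chelator replicate 2 (0.055 and 0.0564), and it was at 0.028 in transcripts of at least 1000 bases. The log2 fold changes of ULK3 (0.20) and ATG101 (0.085) did not pass. As shares of the summed TPM of the 3 ULK kinases, ULK1 went from 25.8% ± 0.57 (SD, n = 3) to 41.8% ± 0.65 and ULK3 from 73.5% ± 0.43 to 58.2% ± 0.64, without overlap between the groups. The exact permutation test gave p = 0.1, the smallest that 3 libraries against 3 allow, and an adjusted p of 0.147 over the 25 family shares tested.

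The PI3K complex, which makes PI3P on the growing membrane, had 4 of 6 members that did not pass, where 15282 of 24542 genes did not. Its summed level was 104.7 ± 8.67 TPM in DMSO and 109.4 ± 2.75 TPM in Chelator. BECN1 (beclin 1), its most abundant member, had normalized counts of 3425, 3143 and 3347 in DMSO and 3306, 3521 and 3896 in Chelator. The groups overlapped, and the log2 fold change of 0.11 had a 95% interval of -0.06 to 0.29. ATG14, the subunit that directs the complex to autophagy, rose by 0.32 (DESeq2 adjusted p = 0.00766). PIK3R4 (VPS15), the regulatory kinase-like subunit, fell by 0.44 (DESeq2 adjusted p = 3.70e-08), with all Chelator libraries between 2859 and 3079 normalized counts and all DMSO libraries between 4008 and 4077. The catalytic subunit PIK3C3 (VPS34) had a log2 fold change of 0.28 (DESeq2 adjusted p = 0.0531), just short of passing, and it passed as higher in 10 of 15 alternative fits, with 0.12 after centring as its lowest value. UVRAG was at -0.16 and AMBRA1 at -0.10, and neither passed.

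Among the genes of membrane supply and PI3P reading, the WIPI genes rose and ATG9A and ATG2A fell. WDR45 (WIPI4; ENSG00000196998.19, chromosome X, 49074433 to 49101170), which binds PI3P and the lipid transfer protein ATG2, had normalized counts of 2882, 2720 and 2598 in DMSO and 5943, 6080 and 6481 in Chelator. The lowest Chelator library held more than the highest DMSO library, and the log2 fold change was 1.17 (DESeq2 adjusted p = 8.14e-48, SE 0.08). With transcripts of at least 1000 bases it was 0.98, just under the fold threshold. WIPI1 had normalized counts of 609, 581 and 652 in DMSO and 1053, 1020 and 1228 in Chelator, a log2 fold change of 0.84 (DESeq2 adjusted p = 9.38e-11, SE 0.12). Of its 31-base sequences, 22.4% also occurred in other expressed genes, most of them in the neighbouring ARSG.

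WIPI2, which recruits ATG16L1 to the membrane, and WDR45B (WIPI3) rose less, by 0.32 and 0.26 on the log2 scale (DESeq2 adjusted p = 3.84e-05 and 0.00173), and both were among the genes that did not pass after centring. All 4 WIPI genes passed as higher in the fit as reported, where 19.5% of all genes did. The TPM shares of the WIPI genes did not overlap between the groups for 3 of the 4. No share could pass the exact permutation test, whose smallest p is 0.1 with 3 libraries against 3. WDR45 went from 33.7% ± 1.26 to 47.2% ± 1.08 of their summed TPM, and WIPI2 from 36.5% ± 1.02 to 28.4% ± 1.29 (exact permutation p = 0.1 each, adjusted p = 0.147). The TPM of WDR45 was 0.857 to 0.969 times that of WIPI2 in DMSO and 1.55 to 1.76 times in Chelator, so the order of these genes in TPM was reversed in every Chelator library. In estimated counts, which are not scaled for length, WIPI2 stayed above WDR45 in every library (7710 to 9125 against 6185 to 7313 in Chelator).

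ATG9A, the lipid scramblase that seeds the membrane, fell by 0.28 (DESeq2 adjusted p = 0.00350), with 35.8% of its 31-base sequences shared with an overlapping unnamed gene. ATG2A, one of the lipid bridges, fell by 0.21 (DESeq2 adjusted p = 0.00684). ATG2B had a log2 fold change of -0.12 that did not pass and that turned to 0.044 without DMSO replicate 2, in which its normalized count was 3104 against 2145 and 2382 in the other DMSO libraries.

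Conjugation genes split between rises and falls. ATG3, the enzyme that hands ATG8 proteins to the membrane lipid, had normalized counts of 6579, 6449 and 6696 in DMSO and 4402, 4062 and 4030 in Chelator. All Chelator libraries were lower, and the log2 fold change of -0.66 (DESeq2 adjusted p = 3.89e-18, SE 0.07) was the largest fall among the members other than ULK2. It ranged from -0.82 to -0.59 under the other scalings and transcript sets. Its promoter entry held CACGTG at 2 places, 18 bases before the start and 5 after it. ATG10, the enzyme that joins ATG12 to ATG5, fell by 0.30 (DESeq2 adjusted p = 0.00967), and it passed as lower in 10 of 15 alternative fits, with a value of 0.0095 in transcripts of at least 1000 bases. RPS23, on the opposite strand, overlapped 6.87% of the exonic bases of ATG10. It averaged 4525 TPM against 10.5 TPM for ATG10, and its part in this change was not tested.

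ATG16L2, a relative of the ATG16L1 scaffold, had normalized counts of 227, 258 and 191 in DMSO and 404, 344 and 422 in Chelator. The groups did not overlap, and the log2 fold change was 0.79 (DESeq2 adjusted p = 9.98e-05, SE 0.19). This size depended on the length correction and on the transcripts summed. The log2 fold change was 1.30 without that correction, 1.83 in protein-coding transcripts and 1.66 in transcripts of at least 1000 bases. ATG12 and ATG7, the ubiquitin-like protein and the activating enzyme of the system, rose by 0.35 and 0.25 (DESeq2 adjusted p = 0.000896 and 0.00897). ATG5 and ATG16L1 did not pass at 0.11 and -0.09, and both changed sign without the length correction, to -0.27 and 0.17. The summed level of the conjugation genes was 162.9 ± 15.7 TPM in DMSO and 154.6 ± 1.64 TPM in Chelator.

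ATG4 proteases trim new ATG8 proteins and later free them from lipid. ATG4B, the most abundant and the most active on LC3, had normalized counts of 3683, 3246 and 3360 in DMSO and 4292, 5563 and 5582 in Chelator. Chelator replicate 1 lay between the DMSO libraries and the other Chelator libraries, without overlap, and the log2 fold change was 0.58 (DESeq2 adjusted p = 6.68e-07, SE 0.11). In protein-coding transcripts only it was 1.31. ATG4A and ATG4D rose by 0.27 and 0.21 (DESeq2 adjusted p = 0.0348 and 0.0486), values close to the threshold that passed in 9 of 15 alternative fits each and not after centring, and ATG4C did not pass at -0.11.

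ATG8 genes encode the proteins that coat the autophagosome. Their summed level was 247.4, 274.2 and 255.7 TPM in DMSO and 360.5, 426.6 and 447.6 TPM in Chelator. All 5 had estimates above 0, where 12486 of 24542 genes did, although GABARAP turned to -0.024 after centring. Of the 5, 2 passed as higher, where 19.5% of all genes did. MAP1LC3B (LC3B; ENSG00000140941.14, chromosome 16, 87383953 to 87404779), the most used marker of autophagosomes, had normalized counts of 5765, 5355 and 5888 in DMSO and 14106, 18043 and 19926 in Chelator. The lowest Chelator library was above every DMSO library, and the log2 fold change of 1.61 (DESeq2 adjusted p = 2.01e-45, SE 0.11) was the largest rise among the members that passed.

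The size of the MAP1LC3B rise depended on how its transcripts were counted. It was 1.06 without the length correction and 1.00 in transcripts of at least 1000 bases, where it fell just under the fold threshold (0.999) while its DESeq2 adjusted p was 1.38e-46. Transcripts under 1000 bases took 2.02% of its counts in DMSO and 10.6% in Chelator. MAP1LC3B2, a near copy with 9.05% of the 31-base sequences of MAP1LC3B, had 2.66, 8.88 and 3.89 normalized counts in DMSO and 38.4, 21.6 and 29.2 in Chelator, against 14106 or more for MAP1LC3B.

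GABARAPL1 had normalized counts of 1165, 1018 and 1148 in DMSO and 1812, 1873 and 1872 in Chelator, a log2 fold change of 0.74 (DESeq2 adjusted p = 4.07e-13, SE 0.10), which was 0.58 after centring. GABARAP, the most abundant ATG8 gene in DMSO, had normalized counts of 4200, 4202 and 4424 in DMSO and 4544, 4601 and 4959 in Chelator. The groups did not overlap, but the log2 fold change of 0.14 had a 95% interval of -0.01 to 0.28 and did not pass (DESeq2 adjusted p = 0.148). GABARAPL2 was at 0.21 (DESeq2 adjusted p = 0.0555), and both of these passed with TMM size factors. MAP1LC3A was close to absent, with 4 to 10 estimated counts in DMSO and 16 to 27 in Chelator, and its log2 fold change of 1.40 (SE 0.74) did not pass.

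As a share of the ATG8 TPM, MAP1LC3B went from 21.4% ± 0.095 (SD, n = 3) to 41.9% ± 3.52, GABARAP from 49.2% ± 1.69 to 34.9% ± 2.01 and GABARAPL2 from 25.9% ± 1.53 to 19.3% ± 1.25. The groups did not overlap for any of the 3 (exact permutation p = 0.1, adjusted p = 0.147). MAP1LC3B stood at 0.417 to 0.450 times the TPM of GABARAP in DMSO and at 1.02 to 1.32 times in Chelator. In TPM it was the third of the family in each DMSO library and the first in each Chelator library. In estimated counts, which are not scaled for length, MAP1LC3B was above GABARAP in every library, also in DMSO (5615 to 6941 against 3968 to 4329). The TPM of MAP1LC3B includes short transcripts, described below, and the part of fragment length was not tested.

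All 5 receptors passed as higher in the fit as reported, where 19.5% of all genes did. Each receptor averaged over 1000 normalized counts, a level at which 24.8% of all genes were higher. SQSTM1 (ENSG00000161011.20, chromosome 5, 179806398 to 179838078), which binds ubiquitinated cargo, had normalized counts of 11476, 9716 and 11078 in DMSO and 25944, 25565 and 31324 in Chelator. Every Chelator library held more than any DMSO library, and the log2 fold change was 1.36 (DESeq2 adjusted p = 8.63e-43, SE 0.10). It was called in all 15 alternative fits, with 1.06 as its lowest value. Of its 31-base sequences 20.2% also occurred in MRNIP, a gene on the opposite strand, and whether the authors' counting used strand is not given in the sources used here.

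OPTN (optineurin; ENSG00000123240.17, chromosome 10, 13099449 to 13138308), a receptor for damaged mitochondria and bacteria, had normalized counts of 844, 767 and 818 in DMSO and 1810, 1852 and 1699 in Chelator. The groups were far apart relative to their spread, with a log2 fold change of 1.14 (DESeq2 adjusted p = 4.55e-29, SE 0.10), which became 0.98 after centring. CALCOCO2 (NDP52), which serves the same cargo, had normalized counts of 3983, 3247 and 4036 in DMSO and 7947, 6611 and 7618 in Chelator. Its log2 fold change of 0.98 (DESeq2 adjusted p = 2.63e-19, SE 0.10) lay just under the fold threshold, and it was called in 6 of 15 alternative fits.

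TAX1BP1, which also binds ubiquitinated cargo and takes part in ferritin turnover, rose by 0.46 (DESeq2 adjusted p = 1.66e-07), and NBR1, a partner of SQSTM1, rose by 0.33 (DESeq2 adjusted p = 0.00528). TAX1BP1 passed in all 15 alternative fits. Its rise was smaller without the length correction (0.25), in protein-coding transcripts (0.26) and in transcripts of at least 1000 bases (0.24). NBR1 was 0.17 after centring and did not pass there (DESeq2 adjusted p = 0.20), nor without DMSO replicate 1 or without Chelator replicate 1 (0.0684 or less). The summed level of the 5 receptors was 227.3, 250.3 and 240.7 TPM in DMSO and 452.4, 454.9 and 503.2 TPM in Chelator. SQSTM1 supplied 37.4% ± 1.87 of it in DMSO and 49.9% ± 2.87 in Chelator, and TAX1BP1 28.4% ± 1.40 and 20.4% ± 1.35 (exact permutation p = 0.1 each, adjusted p = 0.147). Over all 40 members the summed level went from 1176 ± 71.5 TPM to 1661 ± 92.0 TPM.

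**Figure D2:**
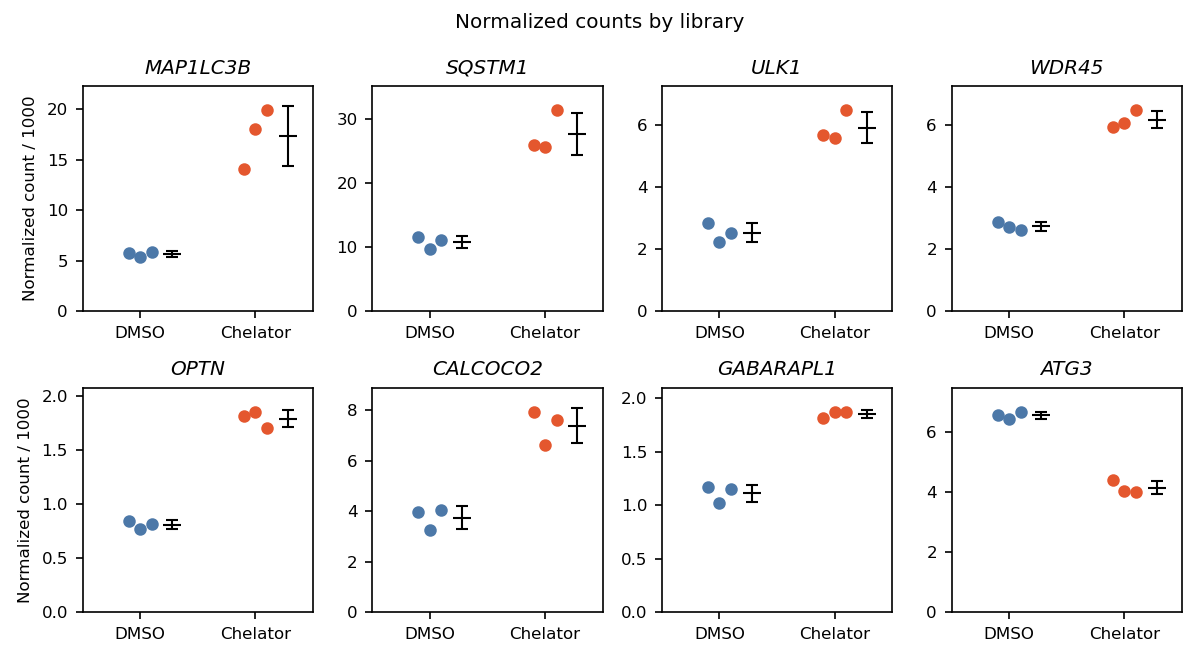
Normalized count (y axis, in units of 1000 counts, from 0) of 8 core autophagy genes in each DMSO and Chelator library, with the mean and SD of each group beside the points (n = 3). For MAP1LC3B, SQSTM1, ULK1, WDR45, OPTN, CALCOCO2 and GABARAPL1 the 3 Chelator libraries lie above the 3 DMSO libraries, and for ATG3 they lie below.

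**Figure D3:**
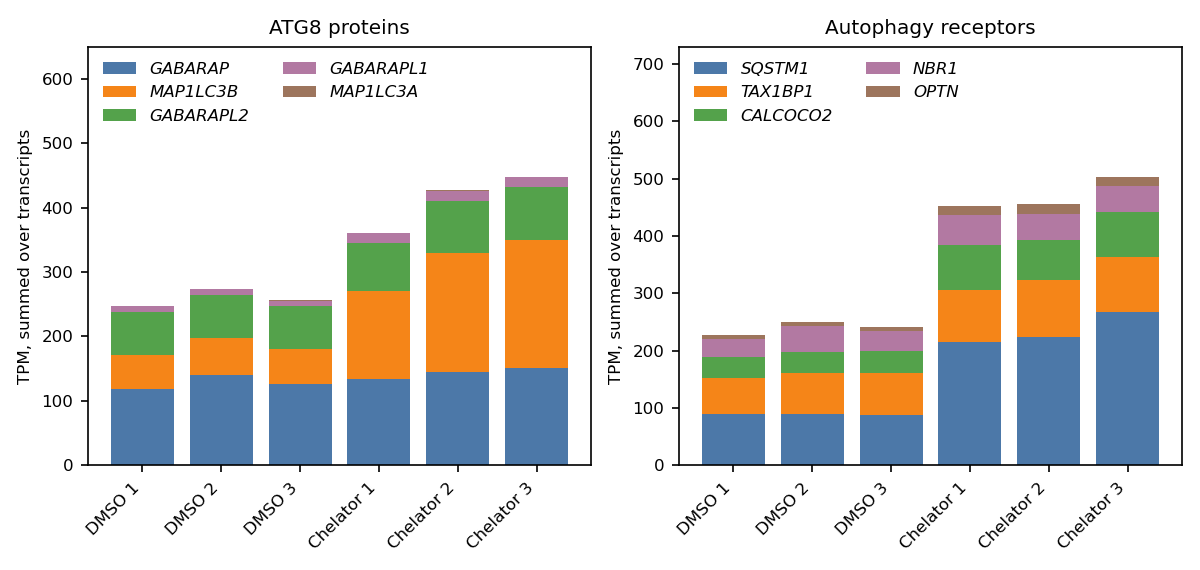
Stacked TPM of the 5 ATG8 genes (left) and of the 5 receptors (right) in each library (y axis from 0). The stacks of the Chelator libraries reach 360.5 to 447.6 TPM for the ATG8 genes and 452.4 to 503.2 TPM for the receptors, with MAP1LC3B and SQSTM1 as the segments that grow most. Both segments include short transcripts, and the part of fragment length was not tested.

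Transcript usage was examined next, since gene sums hide a shift between transcripts. Of 39 members with at least 2 testable transcripts, 5 (12.8%) were called by edgeR's diffSpliceDGE, at an adjusted Simes p under 0.05 and a share change above 5 percentage points, where 9.22% of all genes tested were called. They were ULK2, ATG4B, MAP1LC3B, GABARAP and SQSTM1. SQSTM1, MAP1LC3B and GABARAP were called with each library left out in turn, and ATG4B in 2 of the 6 such fits. ULK2 was not tested in those fits, since it no longer had a pair of transcripts above the count filter. ATG4B was also not called by limma's diffSplice (limma adjusted p = 0.124).

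In MAP1LC3B (edgeR Simes test, adjusted p = 1.31e-05), the 625-base MAP1LC3B-204 held 7.64%, 7.31% and 16.3% of the gene's TPM in DMSO and 22.9%, 47.7% and 52.5% in Chelator. The 2147-base MAP1LC3B-201 went from 86.0% ± 4.85 to 55.5% ± 15.4. Both transcripts nevertheless rose in level, with MAP1LC3B-201 at 44.1 to 51.5 TPM in DMSO and 88.1 to 99.7 TPM in Chelator, and MAP1LC3B-204 at 4.04 to 8.93 and 31.2 to 104.0 TPM. Chelator replicate 1 stood between the DMSO libraries and the other Chelator libraries.

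In SQSTM1 (edgeR Simes test, adjusted p = 1.66e-06), the 274-base SQSTM1-216 held 10.0%, 4.77% and 13.4% of the TPM in DMSO and 21.9%, 28.7% and 40.6% in Chelator. The 2840-base SQSTM1-202, the most abundant in DMSO, went from 44.6% ± 0.76 to 29.2% ± 4.93. The 2253-base SQSTM1-201 went from 6.68% ± 1.91 to 13.7% ± 1.09, or from 641 to 1106 estimated counts in DMSO to 5154 to 6405 in Chelator. SQSTM1-216 is about as long as a fragment, and its share of TPM rested on 16 to 55 estimated counts in DMSO and 358 to 940 in Chelator.

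In GABARAP (edgeR Simes test, adjusted p = 0.000334), the 1319-base GABARAP-201 held 16.5%, 14.5% and 17.3% in DMSO and 6.75%, 5.38% and 3.45% in Chelator. The 476-base GABARAP-205 went from 51.6% ± 1.88 to 58.1% ± 3.32 and the 762-base GABARAP-206 from 26.1% ± 1.63 to 32.3% ± 0.74. The loss of GABARAP-201 was larger than its spread, while the gene sum did not pass. ATG4B (edgeR Simes test, adjusted p = 0.00499) had its largest rise of share in the retained-intron ATG4B-214, from 23.7% ± 2.74 to 28.8% ± 3.33, and its largest fall in ATG4B-201, from 20.2% ± 2.74 to 14.5% ± 2.56. ULK2 (edgeR Simes test, adjusted p = 0.0236) moved from ULK2-203, at 58.4% ± 36.1 and then 0, to ULK2-202, at 1.72% ± 2.97 and then 100% in each Chelator library, on the few counts given above.

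**Figure D4:**
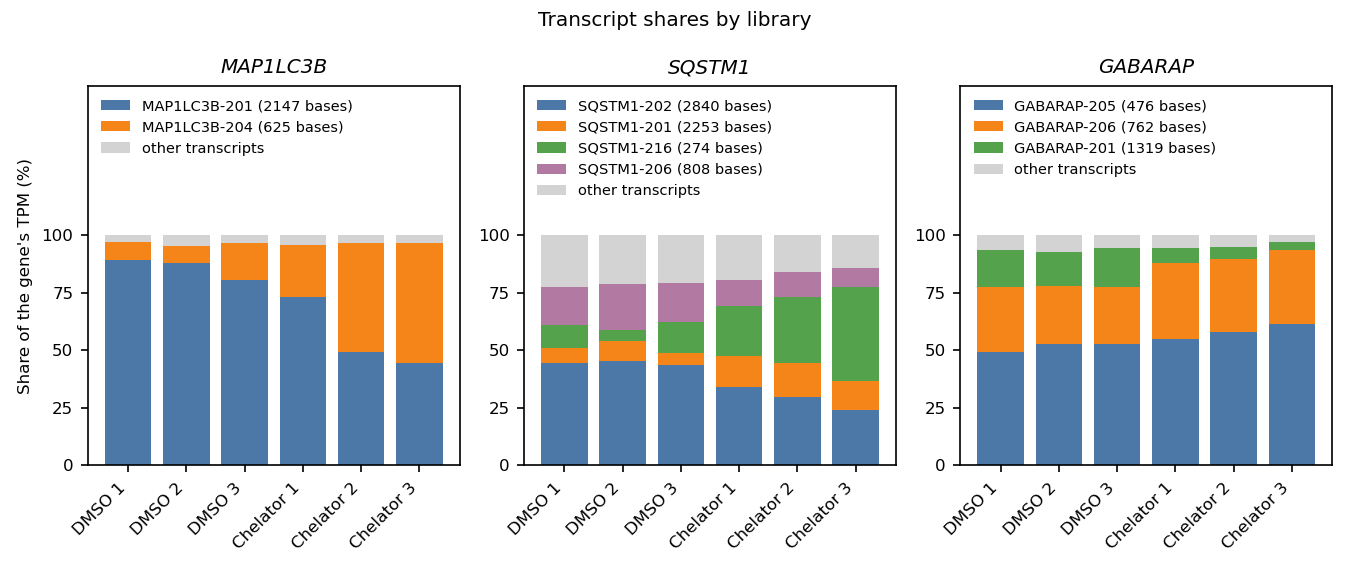
Share of the gene's TPM (y axis, percent) held by the named transcripts of MAP1LC3B, SQSTM1 and GABARAP in each library, with the rest in grey. In the Chelator libraries the shorter MAP1LC3B-204, SQSTM1-216 and GABARAP-205 take larger shares, and GABARAP-201 shrinks from between 14.5% and 17.3% to between 3.45% and 6.75%.

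The rising transcripts of MAP1LC3B, GABARAP and SQSTM1 include short ones, and fragments were shorter in every Chelator library. Restricting the test to transcripts of at least 1000 bases, an alternative chosen after seeing the data, left 3 members called for usage, where 6.13% of all genes tested were. SQSTM1 was still called (edgeR Simes test, adjusted p = 6.57e-08), as were ATG4B (0.0216) and ULK2 (0.0418). MAP1LC3B did not pass (0.270, with a share change of 2.98 points), and GABARAP had no second transcript to test. The part of fragment length in these shifts was not tested.

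At the gene level the same restriction left 6 members (15.4%) called higher, where 9.16% of all genes were. These were ULK1, SQSTM1 and OPTN, called in the fit as reported, and WIPI1, ATG16L2 and GABARAPL2, which were not. It turned GABARAP to -1.48, since transcripts under 1000 bases held 62.6% of its counts in DMSO and 86.7% in Chelator. GABARAPL2 moved to 1.37, a value that rests on few counts, with 97.7% and 95.2% of its counts on shorter transcripts. Across all members, 17 had a shorter average transcript length in Chelator, which is 42.5% of them, against 38.0% of all genes.

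**Figure D5:**
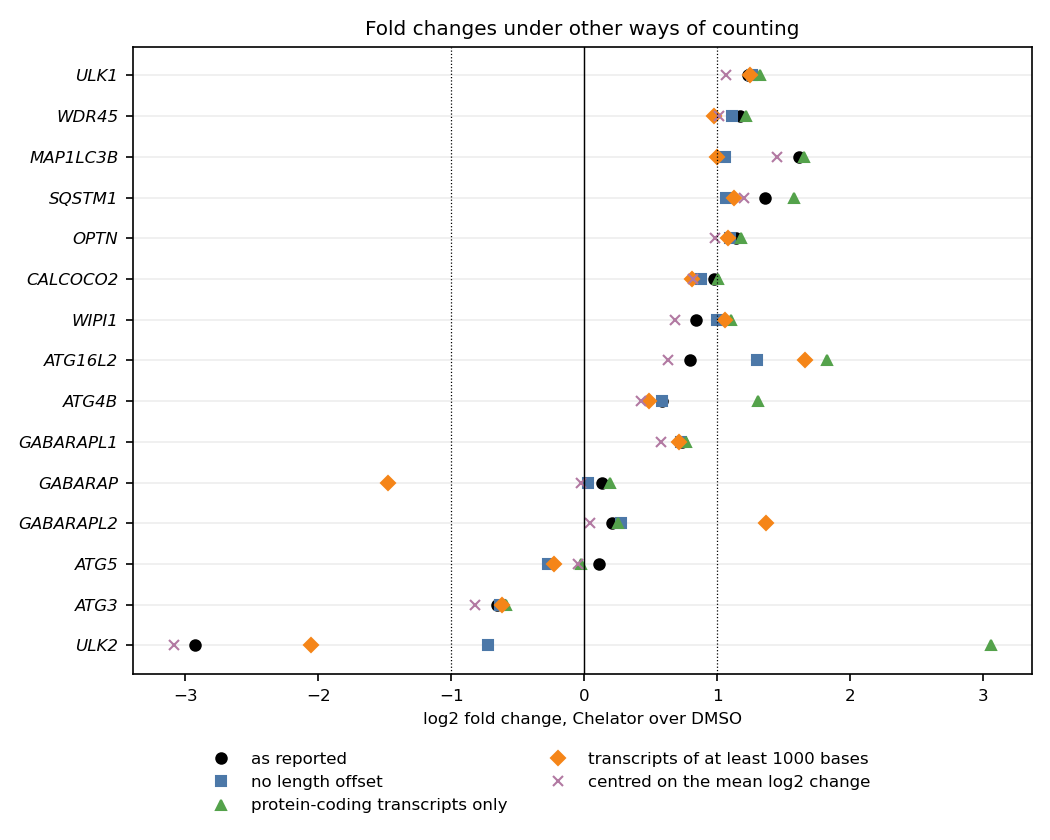
Log2 fold change, Chelator over DMSO (x axis), of 15 core autophagy genes as reported and under 4 other ways of counting or scaling; dotted lines mark a log2 change of 1 in either direction. ULK1 lies between 1.07 and 1.32 in all 5 fits, MAP1LC3B between 1.00 and 1.65, while ULK2 runs from -3.08 to 3.06 and GABARAP from -1.48 to 0.19.

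Genes around the core pathway were then counted by list. Of 101 such genes listed 97 were tested, and 35 were higher and 21 lower at an adjusted p under 0.05 by DESeq2, 10 and 1 of them past the fold threshold, with a median log2 fold change of 0.12. These stand beside 19.5% higher and 18.3% lower for all genes, and 8.18% and 2.6% past the fold threshold.

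Transcription factors and regulators linked to autophagy genes held 9 higher and 3 lower of 16. ATF4, the main transcription factor of the integrated stress response, stood at 147, 152 and 133 TPM in DMSO and 388, 423 and 420 TPM in Chelator (log2 fold change 1.48, DESeq2 adjusted p = 1.30e-85). DDIT3 (CHOP), its partner and target, went from 614, 477 and 542 normalized counts to 2635, 2741 and 2757 (log2 fold change 2.32, DESeq2 adjusted p = 1.28e-96). EPAS1 (HIF-2 alpha), an oxygen-regulated factor, went from 2.13, 2.49 and 1.83 TPM to 19.5, 15.2 and 20.5 TPM (log2 fold change 3.08, DESeq2 adjusted p = 6.58e-121). These 3 genes were higher in every Chelator library than in any DMSO library. KLF4 held 29.4, 40.2 and 31.7 normalized counts in DMSO and 159.6, 122 and 103 in Chelator (log2 fold change 1.93, DESeq2 adjusted p = 1.50e-07). TFE3 rose by 0.43 (DESeq2 adjusted p = 1.78e-08), while TFEB, its relative and the best known activator of lysosomal and autophagy genes, had 0.27 and did not pass (DESeq2 adjusted p = 0.0968), and HIF1A was at 0.0027. The 3 lower genes, FOXO1, FOXO4 and MITF, passed with small counts or small changes, and the edgeR quasi-likelihood test left none of them lower. With 1 library left out, 0 or 1 of the list was lower, except without Chelator replicate 1.

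Upstream kinases and their regulators, which set ULK1 activity, held 5 higher and 4 lower of 21. Of its 18 genes that averaged 1000 or more normalized counts, 27.8% were higher and 22.2% lower, beside 24.8% and 38.2% of all genes above this count. DDIT4 (REDD1), a stress-induced inhibitor of mTORC1, went from 102, 104 and 95.9 TPM to 505, 511 and 523 TPM (log2 fold change 2.32, DESeq2 adjusted p = 2.14e-213). SESN2, a sestrin that also restrains mTORC1, went from 17.4, 19.2 and 16.8 TPM to 61.7, 57.2 and 58.4 TPM (log2 fold change 1.70, DESeq2 adjusted p = 2.76e-106). Its relative SESN3 went from 680.5, 831 and 712 normalized counts to 1823, 1518 and 1470.0 (log2 fold change 1.11, DESeq2 adjusted p = 2.95e-17). The groups overlapped for none of these 3 genes. The mTORC1 subunits MTOR, RPTOR and MLST8 fell by 0.30, 0.54 and 0.32, with DESeq2 adjusted p-values of 0.00101, 1.05e-09 and 0.000418, and CAMKK2, which activates AMPK, fell by 0.69 (DESeq2 adjusted p = 2.02e-22). RHEB, the direct activator of mTORC1, and STK11 (LKB1), an activator of AMPK, rose by 0.35 and 0.21 (DESeq2 adjusted p = 1.19e-07 and 0.00520). PRKAA1, a catalytic subunit of AMPK, was at -0.02 and did not pass (DESeq2 adjusted p = 0.909).

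Selective receptors outside the core held 9 higher and 3 lower of 22. BNIP3L (NIX), a receptor for mitochondria, went from 16.4, 18.9 and 15.4 TPM to 61.3, 54.4 and 59.6 TPM (log2 fold change 1.76, DESeq2 adjusted p = 4.67e-89), and CALCOCO1, a receptor for endoplasmic reticulum, went from 715, 781 and 662 normalized counts to 2182, 2079 and 2225 (log2 fold change 1.59, DESeq2 adjusted p = 2.02e-52). BNIP3 and CCPG1 rose by 0.59 and 0.74 (DESeq2 adjusted p = 1.13e-12 and 5.33e-14). The 3 that passed as lower were TEX264 and SEC62, receptors for endoplasmic reticulum, and NIPSNAP2, a mark on damaged mitochondria, which fell by 0.48, 0.35 and 0.34 (DESeq2 adjusted p = 3.17e-06, 0.00117 and 8.38e-06). NCOA4, the receptor that delivers ferritin, stood at 123, 145 and 125 TPM in DMSO and 163, 142 and 142 TPM in Chelator. Its TPM values overlapped, its normalized counts did not (29125 to 29350 in DMSO and 30361 to 36890 in Chelator), and its log2 fold change of 0.17 did not pass (DESeq2 adjusted p = 0.104).

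Early membrane factors held 7 higher and 4 lower of 15, with ZFYVE1 (DFCP1), TMEM41B and SH3GLB1 rising by 0.93, 0.88 and 0.85 (DESeq2 adjusted p = 4.99e-11, 1.34e-14 and 2.28e-31) and EI24 falling by 0.71 (DESeq2 adjusted p = 5.11e-21). The fusion machinery, which joins the autophagosome to the lysosome, held 4 higher and 6 lower of 18. Of its 17 genes that averaged 1000 or more normalized counts, 17.6% were higher and 35.3% lower, near the shares of all genes above this count. VPS18, a subunit of the HOPS tether, fell by 0.71 (DESeq2 adjusted p = 1.20e-14) and the SNARE STX17 by 0.24 (DESeq2 adjusted p = 0.0164), while the SNARE VAMP8 rose by 0.61 (DESeq2 adjusted p = 9.61e-09). Several of its calls were near the threshold, and leaving out DMSO replicate 3 left 2 higher and 3 lower, and leaving out Chelator replicate 3 left 2 higher and 2 lower. Leaving out Chelator replicate 2 left 3 lower.

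Among the paralogs outside the core, ATG9B, the second ATG9 gene, went from 715, 700 and 845 normalized counts to 250, 225 and 363. Its log2 fold change of -1.43 (DESeq2 adjusted p = 3.47e-13) was the only one of this list that passed as lower, and no gene of the list was lower without the length correction, with protein-coding transcripts only or with transcripts of at least 1000 bases. MAP1LC3B2 was called higher on the few counts given above.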

How the data were processed

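PolyA RNA of K562 cells, read from both ends on an Illumina machine, was quantified by the authors with salmon (Salmon 1.10.2 in the submitters' processing notes). The transcript annotation, bias correction and strand setting are not given in the sources used here. The deposited estimated counts divide each read among the transcripts it could come from and need not be whole, so transcripts that share sequence are uncertain. For TPM, the authors' salmon run scaled estimated counts by effective length to a sum of 1e+06 per library before they were deposited.

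Transcripts (252045) were matched by identifier to GENCODE 44 on GRCh38: 251142 had the same version, 470 another version and 433 no match, which were dropped with 0.139% to 0.150% of the counts per library. Estimated counts were summed per gene and rounded. Genes with a total above 10 were tested with DESeq2 1.42.0 (R 4.3.3; Wald test, median-ratio size factors, average transcript length as an offset), adjusted by the Benjamini-Hochberg method over 24542 genes. Calls needed a log2 fold change above 1 in either direction with an adjusted p under 0.05, thresholds taken from the study's methods. Transcript usage was tested with edgeR 4.0.16 (diffSpliceDGE) on transcripts that reached 10 counts in 3 or more libraries. Family shares of TPM were compared with two-sided exact permutation tests. Shared sequence was counted as the 31-base sequences of a gene's transcripts that occur in another gene at or above 0.1 TPM.

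Values in every library are given for called members, for members that passed with a log2 fold change of at least 0.5 in either direction, for the most abundant of each role and for those called for usage. Pathway genes have values where called, and others named among them were chosen after their values were seen. The members and gene lists were chosen with earlier results of these data known. The tests were run on simulated counts first. Alternatives were edgeR's quasi-likelihood test, TMM size factors, no length offset, other count filters, centring, protein-coding transcripts only, limma 3.58.1 for usage, a replicate block, leaving out each library and, chosen after seeing the data, transcripts of at least 1000 bases. Promoters came from RefSeq. One marker of other cells is not reported here.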

Additional observations from a re-analysis of the deposited data

How the results depend on the processing

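ULK1 and SQSTM1 were called higher in all 15 alternative fits, and WDR45, MAP1LC3B and OPTN in 14 each. Over 599 alternative fits of single members, 520 kept their direction and side of the threshold, 32 no longer passed, 31 newly passed and 16 changed direction. The causes of these changes were not tested beyond what each alternative itself removes. Limits of depth apply to ULK2 and MAP1LC3A, whose libraries held under 35 estimated counts each. Shared sequence, the unknown strand setting and the shorter fragments of the Chelator libraries limit statements about single transcripts.

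With protein-coding transcripts only, 10 members were called higher (adding ULK2, WIPI1, ATG16L2, ATG4B and CALCOCO2) and 0 lower, which is 25% of the members higher where 9.81% of all genes were called higher and 1.93% lower. Without the length correction 0 were called lower (2.46% of all genes), and with transcripts of at least 1000 bases 2 were (ULK2 and GABARAP; 2.1% of all genes). Centring left 11 members higher and 10 lower at an adjusted p under 0.05 by DESeq2 and moved the share of higher among all called genes from 75.9% to 60.5%. For transcript usage, limma's diffSplice called 13 members, without ATG4B, where it called 26.7% of all genes, and transcripts of at least 1000 bases left 3 where 6.13% of all genes were called. Leaving out each library in turn gave 3 to 5 members called for usage, with 3 without Chelator replicate 2, where 4.68% to 9.05% of all genes were called (5.18% without Chelator replicate 2).

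Direction changed in log2 fold change with protein-coding transcripts only for ULK2 (3.06), AMBRA1 (0.13), ATG5 (-0.026) and ATG16L1 (0.35). It changed after centring for ATG101 (-0.076), BECN1 (-0.048), ATG5 (-0.048) and GABARAP (-0.024), and without the length correction for ATG5 (-0.27) and ATG16L1 (0.17). With transcripts of at least 1000 bases it changed for RB1CC1 (0.028), ATG5 (-0.22), ATG10 (0.0095), ATG16L1 (0.21) and GABARAP (-1.48). ATG2B ranged from -0.23 to 0.044 with 1 library left out. After the change of direction, the DESeq2 adjusted p was under 0.05 for ULK2 and ATG16L1 with protein-coding transcripts, for ATG5 without the length correction and with long transcripts, and for GABARAP with long transcripts.

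Family share differences, in percentage points, changed direction with protein-coding transcripts only for ULK2 (0.090), ATG2A (0.74) and ATG2B (-0.74). As shares of estimated counts they did so for ATG2A (1.68), ATG2B (-1.68) and ATG4A (0.41), and with transcripts of at least 1000 bases for ATG2A (1.60), ATG2B (-1.60), ATG4A (1.58) and GABARAPL2 (0.47). CALCOCO2 ranged from -0.27 to 0.83 with 1 library left out.

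The labels give both groups replicate numbers 1 to 3, but same-numbered libraries deviated together only weakly (correlations of -0.074, 0.13 and 0.11), and DMSO replicate 1 correlated best with Chelator replicate 3, so the numbers were not taken to pair the libraries. With a replicate block, 5 members were called higher and 1 lower as before, 19 in place of 20 were higher at an adjusted p under 0.05 by DESeq2, and 5 were called for usage, with CALCOCO2 in place of ULK2.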
